A study of Mus musculus with 4 samples.

Results

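The HER2 mammary tumour epithelial cells are barcodes with epithelial transcripts, read here as the transplanted cancer cells of these tumours. Of 14555 kept barcodes, 567 were taken as such cells. Whether epithelial cells of the host are among them was not tested. A cell was taken as one of them when its transcripts of Epcam, Krt8 and Krt18 together made up at least 2 UMIs and at least 0.2% of its UMIs, with at most 1 UMI of the leukocyte gene Ptprc and 0 UMIs of Cd3d, Cd3e and Cd3g. A UMI (unique molecular identifier) stands for 1 captured transcript, and a barcode was kept when it held 500 or more mouse UMIs and 250 or more genes, with no more than 20% of its UMIs mitochondrial. The cells were thus chosen by the measured levels of those 7 genes in the same data, so these levels are given only as a description.

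The tumours were grown from H605, a HER2-positive mouse mammary tumour cell line, of which 2000000 cells were placed in the mammary pad of FVB/NJ mice aged 6 to 8 weeks. The hosts were WT or IL1α-/-, with 2 tumours in each group, all harvested on day 14 and enriched for live cells. The deletion of the interleukin 1α gene lies in the host, and per the labels the same H605 cells were given to both groups. The tumours were collected as pairs on separate days, each tumour is 1 library, and all injected cells come from 1 line.

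Mammary luminal cells line the ducts and alveoli of the gland, and carry keratins 8 and 18 and the adhesion molecule Epcam. Their alveolar lineage, which arises from luminal progenitors, makes milk proteins in response to prolactin, whereas the hormone-sensing lineage carries receptors for oestrogen and progesterone. HER2, encoded by Erbb2, is a receptor tyrosine kinase that signals with its partner Erbb3, and its excess drives a class of breast cancers. Interferons induce antigen presentation by MHC class I and the chemokines Cxcl9 and Cxcl10, which attract T cells.

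WT replicate 1 held 319 tumour cells among 4001 kept barcodes, or 7.97% (95% exact binomial interval 7.15 to 8.86). WT replicate 2 held 223 of 4006, or 5.57% (4.88 to 6.32). IL1α-/- replicate 1 held 22 of 3213, or 0.685% (0.430 to 1.03), and IL1α-/- replicate 2 held 3 of 3335, or 0.0900% (0.0186 to 0.263). Both WT libraries lay above both IL1α-/- libraries. The mean share was 6.77% ± 1.70 (SD, n = 2) in WT hosts and 0.387% ± 0.421 (SD, n = 2) in IL1α-/- hosts, a difference of -6.38 percentage points (exact two-sided permutation test, p = 0.33, the smallest that 2 against 2 can give). Within the pairs the differences were -7.29 and -5.48 points. A share of barcodes cannot tell fewer tumour cells from more of the other cells. The difference was -2.96 points when the keratin and Epcam share had to reach 0.5%. The intervals cover counting error only.

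The cells carried their markers and little of any other cell type. Wfdc18, a secreted protein of luminal cells, stood at 9485 CPM (UMIs of the gene per 1000000 UMIs) in WT replicate 1 and 4849 in WT replicate 2, against 443 and 155 in the other kept barcodes. Csn3, the milk protein kappa casein, stood at 11078 and 9425 CPM, against 385 and 296. The 11 T and NK cell markers summed to 2.88 and 5.52 CPM against 2975 and 3351 in the other barcodes. The 11 phagocyte markers summed to 19.8 and 49.2 against 3849 and 3220, and the 7 fibroblast markers to 10.7 and 23.9 against 6055 and 9102. The red cell markers were at 0. The rule itself set Cd3d, Cd3e and Cd3g to 0 and capped Ptprc, which limits the T and NK cell sum. Of the WT cells, 6 and 9 had no UMI of either Wfdc18 or Csn3. No tumour cell shared its barcode with a kept barcode of another library.

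The limits of the rule cut through a range of cells. The lowest keratin and Epcam share inside it was 0.202% in WT replicate 1 and 0.200% in WT replicate 2, and the highest outside was 0.199% and 0.195%. The Ptprc limit removed 17 and 6 barcodes of the WT libraries and the Cd3 limit 7 and 10.

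The genes at the highest level in WT tumour cells included secreted proteins of luminal cells beside housekeeping genes. By mean CPM of both WT libraries, leaving out mitochondrial and ribosomal protein genes, the 15 highest included Csn3, Lcn2 (lipocalin 2, which binds iron-carrying siderophores), Wfdc18, Trf (transferrin), Spp1 (osteopontin), Fth1 (ferritin heavy chain) and S100a6 with Tpt1, Eef1a1 and Actb. Malat1, a nuclear long RNA, ranked second at 10316 and 12603 CPM. Lcn2 stood at 10255 and 7818 CPM, Trf at 6387 and 4681, and Spp1 at 4376 and 5700. Gm42418, a gene model that overlaps ribosomal RNA, ranked first at 10777 and 19936 CPM, but reached 164216 and 200908 CPM in free RNA, the pool of barcodes with at most 100 UMIs. Against the other kept barcodes, genes at or above 100 CPM in both libraries with the highest ratios were Lcn2, Mia, Csn3, Clu, Col9a1, Clca3a2, Prlr, Folr1, Tnnt2, Epcam, Muc15, Dsg2, Ano1, Fxyd3 and Cldn7, which the choice of cells makes a description.

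Milk genes were present at very unequal levels. Of 15 alveolar and milk genes, 8 were at or above 10 CPM in both WT libraries. Mfge8, a milk fat globule protein, stood at 780 and 1232 CPM and Ltf (lactoferrin) at 334 and 980. The major milk genes of lactation were far lower: Csn2 (beta casein) at 65.2 and 29.4 CPM, Csn1s1 at 7.10 and 2.01, Wap at 0.888 and 3.01 and Lalba at 20.4 and 0.753, and Glycam1 had 0 UMIs. The cells thus held much Csn3 transcript with little of the other caseins.

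Genes of luminal progenitors were measurable, and most genes of hormone-sensing and basal cells were near 0. Of 8 progenitor genes, 7 were at or above 10 CPM in both WT libraries, among them the transcription factors Elf5 (166 and 184 CPM), Ehf (229 and 225) and Sox10 (195 and 145). Esr1, the oestrogen receptor, was at 9.54 and 7.28 CPM, Foxa1 at 1.33 and 1.76, and the progesterone receptor Pgr had 0 UMIs. Prlr, the prolactin receptor, was at 155 and 124 CPM. The basal keratins Krt5 and Krt17 and the basal factor Trp63 were each at or below 0.502 CPM, although Krt14 reached 27.6 CPM in WT replicate 2. Krt19, a common luminal keratin, stood at only 0.666 and 13.3 CPM, whereas Krt7 stood at 259 and 601.

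The luminal junction genes were present and mesenchymal genes were low. Cldn7, a tight junction claudin, was at 549 and 560 CPM, Cldn3 at 433 and 494, and Cdh1 (E-cadherin) at 171 and 196. Of 10 mesenchymal genes, only Vim (170 and 402 CPM) and S100a4 (73.0 and 230) reached 10 CPM in both WT libraries. The transcription factors Snai1, Snai2, Twist1, Zeb1 and Zeb2 ranged from 0 to 4.22 CPM.

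Among ERBB receptors, Erbb2 was the highest. It stood at 197 CPM in WT replicate 1, 141 in WT replicate 2 and 95.1 in IL1α-/- replicate 1, the last from 12 UMIs (exact Poisson interval 49.2 to 166). Its partner Erbb3 stood at 128, 64.3 and 55.5 CPM in that order. Egfr was at 24.6 and 14.8 CPM in the WT libraries, and Erbb4 had 0 UMIs in each. CPM is not per length, but the libraries count 3′ ends, so a level is a count of captured transcripts. Of the ligands, Hbegf (93.2 and 113 CPM), Areg (53.3 and 67.3), Nrg2 (30.0 and 18.1) and Tgfa (29.7 and 21.3) were the highest. The labels do not say which species' HER2 gene the line carries; human ERBB2 had 3 and 1 UMIs over all kept barcodes of the WT libraries. How far transcripts of the line's HER2 gene are counted as Erbb2 was not tested.

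The tumour cells held almost none of the interleukin 1 ligands and little of the receptor. The deletion of Il1a lies in the host and not in the injected line. Il1a had 0 UMIs in WT replicate 1, which allows up to 0.666 CPM at a floor of 3 counts. WT replicate 2 had 2 UMIs of it (0.502 CPM). Il1b was at 0.222 and 1.26 CPM. Il1r1, the signalling receptor, was at 0.444 and 0 CPM. Its accessory chain Il1rap stood at 65.5 and 70.1 CPM, above the 16.4 and 12.4 CPM of the other barcodes.

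**Figure D1:**
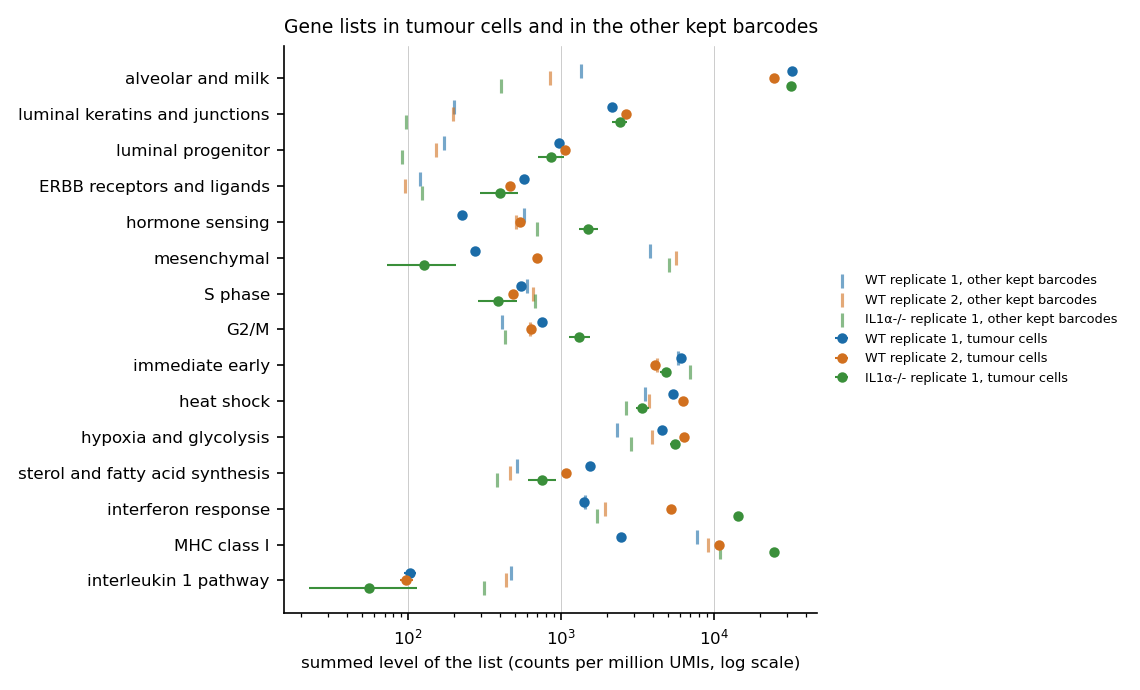
Summed level of each gene list in CPM on a log scale. Points are tumour cells of 1 library with exact Poisson 95% intervals, and bars are the other kept barcodes of the same library. The alveolar and milk list lies far to the right of the other barcodes in each library, and the interferon response and MHC class I lists step up from WT replicate 1 to WT replicate 2 to IL1α-/- replicate 1.

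MHC class I, immune ligand and interferon response genes were the program lists with the widest ratio between the 2 WT tumours. Each is 1 library, so the values carry no test, and the intervals below cover counting error only. The 17 interferon response genes summed to 1403 CPM in tumour cells of WT replicate 1 and 5260 in WT replicate 2, a ratio of 3.75 (3.65 to 3.86). In the other kept barcodes of the same tumours the list stood at 1429 and 1922 CPM. The 12 MHC class I genes summed to 2444 and 10844 CPM, a ratio of 4.44 (4.35 to 4.53), against 7698 and 9078 CPM in the other barcodes. The 12 immune ligand genes, such as Lgals3 (galectin 3) and Cd47, which restrains phagocytes, summed to 408 and 1580 CPM. Their ratio was 3.88 (3.68 to 4.09), but only 7 of the 12 were higher in WT replicate 2. In cells with at least 2000 UMIs, Lgals3 stood at 132 and 985 CPM and Cd47 at 167 and 401. The ratio of this list thus rests mainly on Lgals3. Every one of the 17 interferon and of the 12 MHC class I genes was higher in WT replicate 2, although Rsad2 hardly so (0.888 and 1.00 CPM). Scrublet marked 1 and 14 of the cells as possible doublets, and without these the ratios were 3.77 and 4.54. The tumour cells of WT replicate 1 were below their neighbours in MHC class I, and those of WT replicate 2 above them.

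Over 1622 genes with at least 100 CPM in 1 of the WT libraries, 6.23% were at least 2-fold higher and 2.16% at least 2-fold lower in WT replicate 2. Gbp2, an interferon-induced GTPase, stood at 19.1 CPM in WT replicate 1 and 621 in WT replicate 2. Psmb9, a subunit of the immunoproteasome, stood at 34.2 and 445 CPM. Cxcl9 rested on 2 UMIs in WT replicate 1 (0.444 CPM) and reached 506 CPM in WT replicate 2, and Cxcl10 rested on 1 UMI there (0.222 CPM) against 123 CPM. The largest ratios also included Ly6a, Serpina3g, Ubd, Gbp4, Igtp and Iigp1, which interferon induces, and Prl2c3, a prolactin family gene (2.88 and 220 CPM). Genes that counting could split among near-identical copies, such as the Gbp, H2-Q and Prl2c families, are less certain one by one.

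In the other direction the ratios were smaller. Igfbp5, which binds insulin-like growth factors, stood at 2261 CPM in WT replicate 1 and 756 in WT replicate 2. Aldoc, a glycolytic aldolase, stood at 1516 and 515 CPM, and Scd1, a fatty acid desaturase, at 418 and 151. Atp1b1, Nr4a1, Tfrc, Cnmd, Arhgap31 and Kit were also among the 10 lowest ratios.

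The 22 cells of IL1α-/- replicate 1 held more of both lists than either WT library, and the 3 cells of IL1α-/- replicate 2 did not hold more of the interferon list than WT replicate 2. The 22 cells gave 14436 CPM of the interferon response list (exact Poisson interval 13781 to 15115) and 24655 CPM of the MHC class I list (23796 to 25537). For 16 of 17 interferon genes and 12 of 12 MHC class I genes the order from low to high was WT replicate 1, WT replicate 2, IL1α-/- replicate 1; the exception was Ifi27, at 192, 394 and 301 CPM. Cxcl9 stood at 4828 CPM (4452 to 5227) against 644 CPM in the free RNA and 269 CPM in the other kept barcodes of that library. The 3 cells of IL1α-/- replicate 2 gave 2712 CPM of the interferon list (1402 to 4738, from 12 UMIs), 12884 CPM of the MHC class I list (9758 to 16693) and 0 UMIs of Cxcl9. With WT tumours this far apart and so few cells in IL1α-/- hosts, host genotype and tumour cannot be told apart, and no test was made. The other barcodes of IL1α-/- replicate 1 had 1717 CPM of the interferon list, inside the range of those of the WT libraries.

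Thinning each cell to 2000 UMIs put cells of different depth on 1 scale and left out 88, 66 and 5 shallower cells of the 3 libraries. A cell then held a median of 2 interferon list UMIs in WT replicate 1 (lowest 0, highest 15, 231 cells), 9 in WT replicate 2 (0 to 44, 157 cells) and 27 in IL1α-/- replicate 1 (2 to 83, 17 cells). The ranges overlap, and at least 5 UMIs were found in 21.6%, 76.4% and 94.1% of cells. Ifng, the gene of interferon γ, had 1 UMI in tumour cells of each WT library (0.222 and 0.251 CPM) and stood at 34.5 and 110 CPM in their other barcodes and at 66.1 CPM in those of IL1α-/- replicate 1. Its part in the result was not tested.

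**Figure D2:**
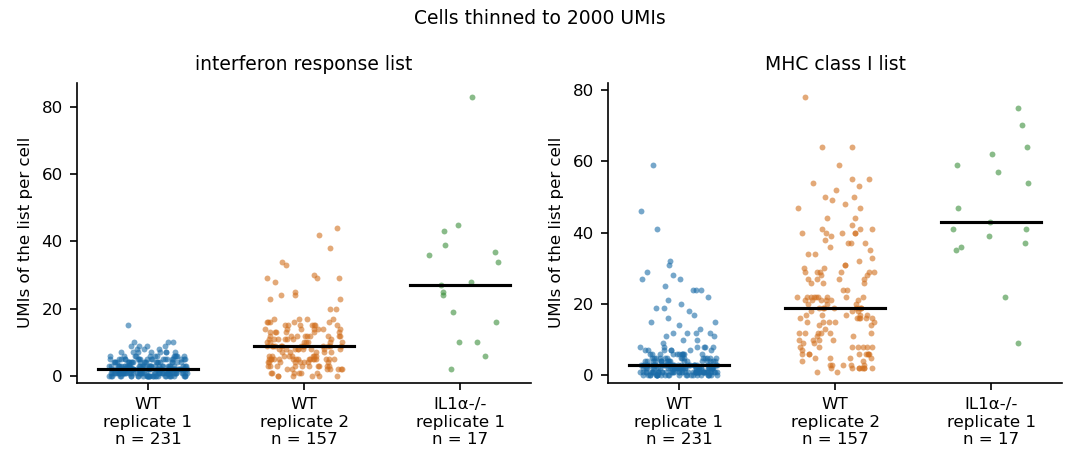
UMIs of the interferon response list (left) and MHC class I list (right) per tumour cell after thinning each cell to 2000 UMIs. Points are cells, spread sideways at random, and bars are medians; the interferon medians are 2, 9 and 27 from left to right.

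Promoters of interferon response genes were read for 2 short motifs, since these genes moved together between the tumours. One motif, GAAA followed by any 2 bases and a second GAAA, is the core of the interferon-stimulated response element, and the other, TTCNNNGAA, is that of gamma-activated sites. Both were searched on both strands in the 250 bases before each start site, in RefSeq sequence of build GRCm38.p6, and a match is a description, not a site. The response element motif was present for 10 of the 14 interferon response genes in the promoter table and 2 of 10 MHC class I genes, beside 3.46% of all 27025 genes. TTCNNNGAA was present for 3 of 14 and 1 of 10, beside 8.13%. Of 12 alveolar and milk genes, 3 had TTCNNNGAA and 0 had the response element motif. For 4 genes from the chemokine, GTPase, MHC class I and ubiquitin-like groups the stretch from base -230 to base -11 before the start is shown. It runs 5′ to 3′ on the gene's strand, with matches in capitals. Each of the 4 has a match, so they do not stand for their groups, and Igtp is in none of the lists counted above. In Igtp (chr11:58199326-58199545, plus strand) both motifs lie side by side, and in Isg15 (chr4:156200829-156201048, minus strand) 3 overlapping matches of the response element motif run together. Cxcl10 lies at chr5:92348900-92349119 on the minus strand and B2m at chr2:122147457-122147676 on the plus strand.
Cxcl10: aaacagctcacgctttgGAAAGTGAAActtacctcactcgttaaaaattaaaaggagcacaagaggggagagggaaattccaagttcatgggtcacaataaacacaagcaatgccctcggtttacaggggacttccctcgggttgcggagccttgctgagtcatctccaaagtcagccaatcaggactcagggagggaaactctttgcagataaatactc
Igtp: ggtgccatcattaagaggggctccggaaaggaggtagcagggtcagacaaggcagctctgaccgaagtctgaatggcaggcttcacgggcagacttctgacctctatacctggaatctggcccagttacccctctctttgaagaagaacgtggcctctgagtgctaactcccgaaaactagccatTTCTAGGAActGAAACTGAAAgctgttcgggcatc
B2m: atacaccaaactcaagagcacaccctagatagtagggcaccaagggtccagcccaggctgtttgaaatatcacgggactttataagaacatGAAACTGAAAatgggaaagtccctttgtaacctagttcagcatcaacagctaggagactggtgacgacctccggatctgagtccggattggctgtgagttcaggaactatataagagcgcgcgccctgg
Isg15: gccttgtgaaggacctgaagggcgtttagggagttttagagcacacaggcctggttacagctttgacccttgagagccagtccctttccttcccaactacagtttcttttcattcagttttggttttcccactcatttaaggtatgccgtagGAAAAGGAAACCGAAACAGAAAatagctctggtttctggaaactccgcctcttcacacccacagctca
Igtp stood at 8.43, 350 and 777 CPM in tumour cells of WT replicate 1, WT replicate 2 and IL1α-/- replicate 1, B2m at 559, 2482 and 7698, and Isg15 at 8.65, 65.8 and 87.2.

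The 325 WT tumour cells with at least 5000 UMIs formed 6 clusters, which describe how the programs are shared out among cells. The clustering used 1500 variable genes, and no list was left out of their choice, so the levels below describe the clusters and test nothing. Cluster 1 (84 cells, 54 of WT replicate 1 and 30 of WT replicate 2) led with Nes, Erbb2 and Srebf1, a regulator of lipid synthesis. These were only 2.03-fold, 1.90-fold and 1.81-fold above the rest, where the first gene of each other cluster was at least 10-fold above it. Cluster 1 had the highest median mitochondrial share, 9.60%, the lowest median depth, 11485 UMIs, and 6 cells marked as doublets. Cluster 2 (67 cells, 17 and 50) led with Prl2c3, Il24, Sprr2a3 and the kallikrein Klk6. It was the lowest in milk genes, with 1713 CPM of Wfdc18 and 13171 CPM of the alveolar list, and had 11457 CPM of S100a6 and 1189 CPM of the mesenchymal list. Its alveolar list was the lowest of the 6 clusters.

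Cluster 3 (50 cells, 41 and 9) held 14076 CPM of the immediate early list, transcription factors such as Fosb that cells switch on within minutes of a stimulus, and led with Nr4a2, Csrnp1 and Dusp1. It also had the highest level of the alveolar list, 43377 CPM. Cluster 4 (50 cells, all of WT replicate 1) led with genes that included Cytl1 and Ak1. Cluster 5 (46 cells, 35 and 11) held the dividing cells, with 3250 CPM of the G2/M list and 1503 of the S phase list, where the other clusters had at most 378 and 511. Cluster 6 (28 cells, 3 and 25) led with Gbp5, Serpina3f and Apol10b and had 9095 CPM of the interferon list, 18964 CPM of MHC class I and 2112 CPM of Cd74, a chaperone of MHC class II.

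The interferon difference between the WT tumours was not confined to cluster 6. In cluster 1 the list stood at 1246 CPM in WT replicate 1 and 3306 in WT replicate 2. In cluster 2 it stood at 916 and 4602 CPM, and in cluster 5 at 1353 and 3563. Clusters that are mostly of 1 library, as 4 and 6 are, may be that library and not a type of cell. Clusters 2 and 3 were uneven too. Cluster 2 held 8.5% of the clustered cells of WT replicate 1 and 40% of those of WT replicate 2, and cluster 3 held 20.5% and 7.2%.

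**Figure D3:**
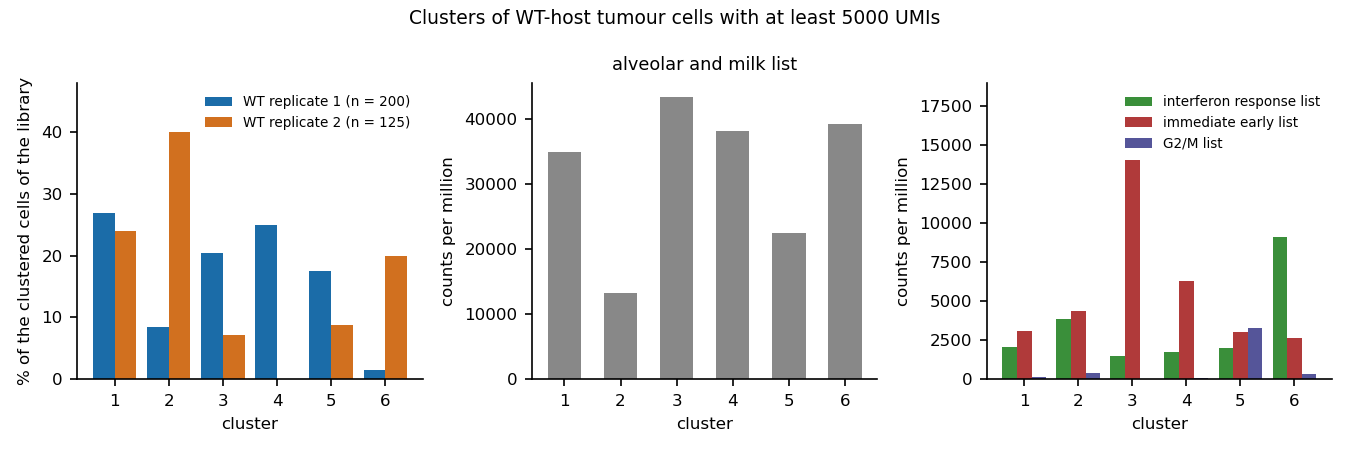
Clusters of WT-host tumour cells with at least 5000 UMIs: share of each library's clustered cells (left), level of the alveolar and milk list (middle) and levels of 3 other lists (right), in CPM. Cluster 3 has the tall immediate early bar at 14076, cluster 5 the G2/M bar at 3250 and cluster 6 the interferon bar at 9095.

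Dividing cells were a minority in each library. The 17 G2/M genes summed to 748 and 640 CPM in tumour cells of the WT libraries and 1316 in IL1α-/- replicate 1, against 411, 621 and 429 in the other barcodes. After thinning to 2000 UMIs, at least 5 G2/M UMIs were found in 19 of 231 cells (8.23%) of WT replicate 1, 11 of 157 (7.01%) of WT replicate 2 and 2 of 17 (11.8%) of IL1α-/- replicate 1. No test was made of these shares.

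Tumour cells ranged from 500 to 159735 UMIs, with medians of 9435 and 6766 in the WT libraries. In the other kept barcodes the medians were 3031 and 4159. Below 2000 UMIs lay 88 and 66 cells. Most cells below it were nearly free of mitochondrial transcripts: the median mitochondrial share was 0.0557% and 0.0531% from 500 to 1000 UMIs, 6.79% and 4.35% from 2000 to 5000, and 5.28% and 5.20% from 15000 up. In all, 82 and 75 WT tumour cells had under 1% mitochondrial UMIs, of which 67 and 51 were below 2000 UMIs. Free RNA was itself rich in mitochondrial transcripts, at 105817 and 65640 CPM against 9534 and 13095 CPM in cells below 1000 UMIs. Cells at or above the median depth of their library were below free RNA too, at 66084 and 58164 CPM. The part of free RNA in the shallow cells was not tested.

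**Figure D4:**
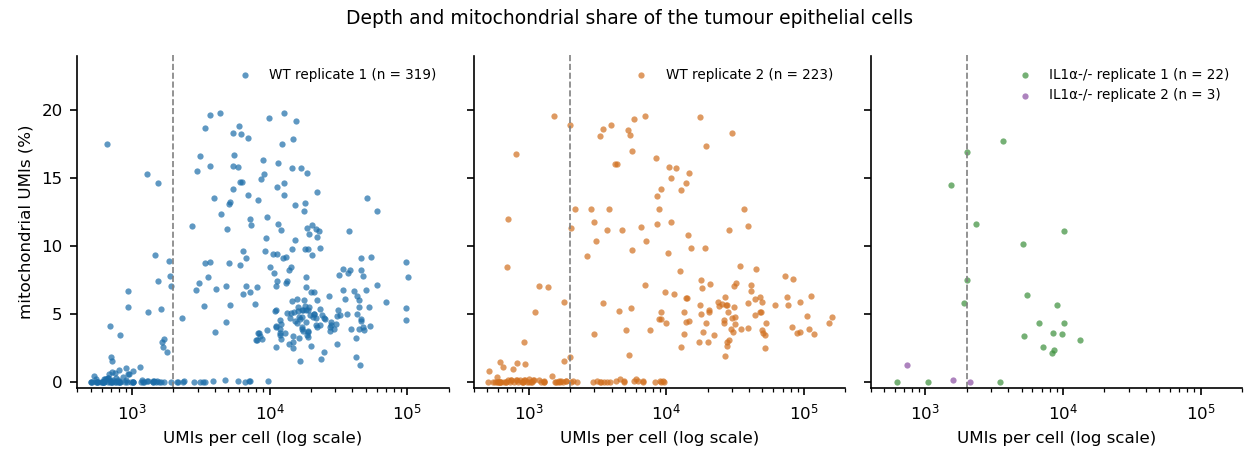
Mitochondrial share of UMIs against UMIs per cell (log scale) for each tumour cell, by library, with a dashed line at 2000 UMIs. Most WT cells left of the line lie near 0%, and most right of it lie between 1 and 20%.

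The deep against shallow comparison asked which transcripts take a different share in cells with many UMIs. In each WT library the cells at or above the library's median (160 and 112 cells) were summed and set against those below it (159 and 111), and edgeR's quasi-likelihood test with the library as a block compared the 2 depth classes. Of 9873 genes tested, 27 passed an adjusted p of 0.05 (0.273%), 13 higher (0.132%) and 14 lower (0.142%) in deep cells, and 673 had an unadjusted p under 0.05. The 4 sums leave 1 residual degree of freedom, so the spread is mostly borrowed across genes. It is the spread of the deep to shallow difference between these 2 libraries, since the block takes out their difference in level. The same fit without the block called 0 genes (332 at an unadjusted p under 0.05) and DESeq2 called 6.

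Erbb2 was lower in deep cells. It stood at 174 CPM in deep and 313 in shallow cells of WT replicate 1 and at 127 and 334 CPM in WT replicate 2 (TMM-scaled), a log2 difference of -1.10 ± 0.25 (SE; edgeR, adjusted p = 0.0074). Both libraries moved the same way, but over 11 alternatives the call was lost in 6. By depth, WT replicate 1 gave 465 CPM from 1000 to 2000 UMIs, 372 from 2000 to 5000, 265 from 5000 to 15000 and 173 above, but only 51.7 from 500 to 1000, where it rested on 2 UMIs. In WT replicate 2 the same steps gave 373, 82.2, 239 and 127 CPM, with no steady order. From 500 to 1000 UMIs it gave 107 CPM, from 3 UMIs. In both libraries these shallowest cells were thus below the deepest ones. With the limit at 2000 UMIs the difference was -0.65 and did not pass (adjusted p = 0.32), and over 11 alternatives the adjusted p ran from 0.00038 to 1.

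Csn2 and several transcripts that abound in free RNA were also lower in deep cells. Csn2 was lower by -1.78 ± 0.28 (log2, SE; edgeR, adjusted p = 4.4e-07), with 45.6 CPM in deep and 206 in shallow cells of WT replicate 1 and 27.5 and 50.4 in WT replicate 2. It turned to 0.19 between the outer tertiles, 0.11 at a limit of 3000 UMIs and 0.40 at a keratin and Epcam share of 0.5%, and was -0.20 at 2000 UMIs, none of which passed. In WT replicate 2 alone it was -0.86, with no test. Trib3, a stress-induced pseudokinase, was lower by -1.32 ± 0.34 (adjusted p = 0.034). It was the 1 of 11 tested unfolded protein response genes that passed. Fam193b was lower by -1.37 ± 0.34 (adjusted p = 0.027). Over 11 alternatives Trib3 lost its call in 9 and Fam193b in 10. A further 4 genes stood higher in free RNA than in either depth class of tumour cells. Retnla, a resistin-like protein of macrophages, stood at 3.80 and 40.4 CPM in deep and shallow cells of WT replicate 1 and at 9.61 and 316 in WT replicate 2 (log2 -4.48 ± 0.34, adjusted p = 1.5e-35), with 2437 and 6681 CPM in free RNA. Ccl8, a macrophage chemokine, was lower by -3.39 ± 0.37, with 3660 and 6358 CPM in free RNA. Lars2 was lower by -2.88 ± 0.30, with 3837 and 3054 CPM in free RNA, and Retnlg, a resistin-like protein of neutrophils, by -7.33 ± 0.73, with 633 and 188 CPM there and 0 UMIs in deep cells of WT replicate 1. In WT replicate 2 alone, where its deep and shallow cells held 2 and 3 UMIs, Retnlg was -3.80, with no test. The part of free RNA in these 4 differences was not tested.

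The genes higher in deep cells included Atf3, Nr4a2, Areg, Klf2, Ndrg1 and Zfp36l1. Atf3, an immediate early transcription factor, was higher by 1.73 ± 0.30 (log2, SE; edgeR, adjusted p = 1.4e-05), at 247 CPM in deep and 76.7 in shallow cells of WT replicate 1 and 161 and 45.8 in WT replicate 2. Nr4a2, an orphan nuclear receptor, was higher by 2.40 ± 0.49 (adjusted p = 0.00079), at 73.6 and 16.2 CPM in WT replicate 1 and 22.6 and 0 in WT replicate 2. Areg, the EGFR ligand amphiregulin, was higher by 1.93 ± 0.42 (adjusted p = 0.0040). Klf2 (1.54), Ndrg1 (1.36) and Zfp36l1 (1.11) also passed, but over 11 alternatives the call was lost in 7, 9 and 6. Areg lost its call in 6 and Atf3 in 2, and Nr4a2 kept its call in only 4 of the 11. Of the 12 immediate early genes only Atf3 passed, while all 12 had a positive log2 difference, with a median of 0.61 against 0.02 over all genes tested. Of 10 heat shock genes 1 passed, Hspa1a, and it was higher. When cells under 1% mitochondrial were left out, Nr4a2 turned to -0.39, Klf2 stood at 0.0012 and 8 of the 12 immediate early genes were positive (median 0.06).

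Few genes of each list passed across the median. Of the 17 G2/M genes none passed, while 14 had a positive log2 difference (median 0.75). When cells under 1% mitochondrial were left out, an alternative added after seeing the data, 8 of the 17 were higher in deep cells, among them Top2a, Ccnb1 and Birc5 (median 1.06). Of the 13 mitochondrial transcripts none passed and 12 had a negative difference (median -0.28). None passed of 14 tested interferon response genes (median -0.29) or of 12 MHC class I genes (median -0.06). In the alveolar and milk list, 3 of 12 tested genes were lower (Csn2, Csn1s2a and Btn1a1) and none higher, but Csn1s2a had 0 UMIs in WT replicate 2. Scaling by library totals alone moved the median of all genes from 0.02 to 0.13 and the calls to 21 higher and 11 lower, or 65.6% higher against 48.1%.

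A limit at 2000 UMIs, chosen after the depths were seen, separated the classes more sharply. It called 155 of 9689 genes (1.60%), 120 higher (1.24%) and 35 lower (0.361%) in deep cells, and 8 of them were among the 27 of the median split. Of 13 mitochondrial transcripts 12 were higher in deep cells; the limit was set where the mitochondrial share was seen to change, so this restates that choice. When cells under 1% mitochondrial were left out of the median split, 7 of the 13 and Malat1 were lower in deep cells. All 3 nuclear long RNAs rose across the 2000 limit. Xist stood at 1888 CPM in deep and 738 in shallow cells of WT replicate 1 and at 1413 and 293 in WT replicate 2 (log2 1.72; edgeR, adjusted p = 2.4e-20). Of 12 immediate early genes 5 rose (Fos, Fosb, Egr1, Atf3 and Ier3), Fos by 1.67 (adjusted p = 6.9e-16).

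Across that limit 3 of 9 tested alveolar and milk genes rose (Lcn2, Csn3 and Mfge8), 2 of 12 luminal keratin and junction genes, and 1 of 11 unfolded protein response genes, with none lower. Lcn2 stood at 10386 CPM in deep and 3654 in shallow cells of WT replicate 1 and at 7913 and 2348 in WT replicate 2 (log2 1.66; edgeR, adjusted p = 4.7e-31). Csn3 and Mfge8 rose by 0.61 and 1.03, the claudins Cldn3 and Cldn4 by 1.13 and 1.88, Prlr by 1.72, and Hspa5, the main chaperone of the endoplasmic reticulum, by 1.30 (adjusted p = 3.3e-09). Of 81 ribosomal protein genes tested 8 fell and none rose. Cxcl9 was lower in deep cells, by -1.86. In WT replicate 2 it stood at 483 and 1775 CPM, and of the 89 Cxcl9 UMIs in its cells below 1000 UMIs, 62 came from 1 cell. In WT replicate 1 it stood at 0.453 and 0 CPM, so the difference rests on WT replicate 2. When cells under 1% mitochondrial were left out of the median split, Cxcl9 and Cxcl10 were instead higher in deep cells. That too rests on WT replicate 2, since all tumour cells of WT replicate 1 held 2 and 1 UMIs of them. Levels at this limit are unscaled CPM. The depth classes hold unequal sums, 4418379 and 88126 UMIs in WT replicate 1 and 3913987 and 68154 in WT replicate 2, so the shallow class sets the precision.

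**Figure D5:**
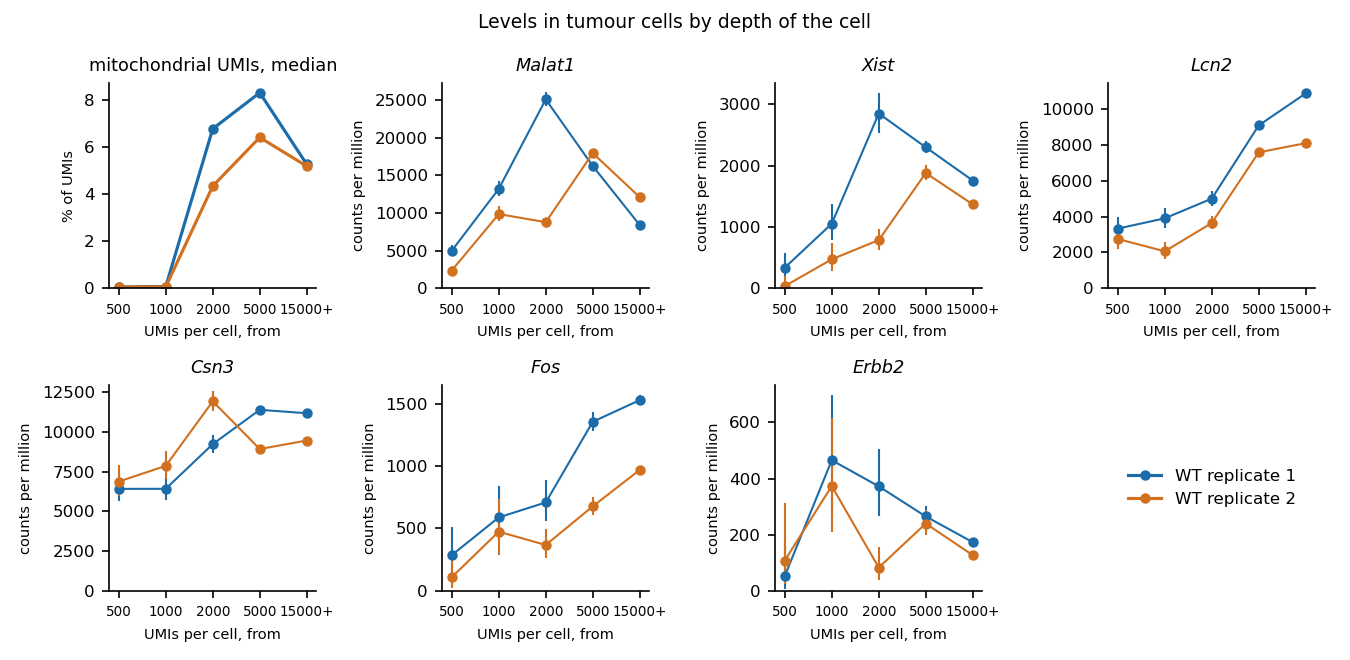
Median mitochondrial share and levels of 6 genes in tumour cells of the WT libraries by depth of the cell; the axis gives the lower end of each of 5 depth ranges, and lines are exact Poisson 95% intervals. The mitochondrial share leaves 0 at 2000 UMIs, and Lcn2 and Fos climb with depth in WT replicate 1. In both libraries Erbb2 is lower above 15000 UMIs than from 1000 to 2000. It is higher there than from 500 to 1000, where it rests on 2 and 3 UMIs.

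The 22 tumour cells of IL1α-/- replicate 1 had 622 to 13376 UMIs, with 17 of them at or above 2000. All 22 had Wfdc18 and 19 had Csn3, with Wfdc18 at 13200 CPM against 291 CPM in free RNA of the library. Their alveolar and milk list, at 31719 CPM, lay between those of the WT libraries, 32278 and 24575 CPM. Igfbp5 was at 79.3 CPM (exact Poisson interval 38.0 to 146) against 2261 and 756 CPM in the WT libraries, and Spp1 at 1562 against 4376 and 5700. Krt19 was at 159 CPM (96.8 to 245), above both WT libraries. Phagocyte markers summed to 222 CPM, and 23 of their UMIs came from 1 cell of 7154 UMIs. Ccl5, a chemokine mainly of T cells, was at 515 CPM, against 0.666 and 28.4 CPM in the WT libraries. The 16 chemokines and colony-stimulating factors, Ccl5 among them, summed to 817 CPM in the 22 cells. They stood at 8415 CPM in the other barcodes and 4166 CPM in free RNA of that library. The part of free RNA in the Ccl5 level was not tested.

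The cells of this library were not alike. The cell with the most UMIs held 97 UMIs of Csn3, 73 of Wfdc18 and 250 of the interferon list. One cell of 9014 UMIs had 33 UMIs of Krt8, 46 of Krt18 and 51 of Wfdc18, but 0 of Csn3 and Lcn2 and 8 of the interferon list. Among cells with more than 5000 UMIs it was the lowest in interferon response genes. In this library 3 cells had 0 mitochondrial UMIs, with 3497, 1037 and 622 UMIs.

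IL1α-/- replicate 2 gave 3 cells, which are listed and not averaged. The first had 2104 UMIs, with 1 of Epcam, 10 of Krt8, 7 of Krt18 and none of Wfdc18 or Csn3; S100a6, Mt1 and Alox12e were among its highest genes. The second had 1590 UMIs, with 16 of Epcam, 14 of Wfdc18 and 1 of Csn3. The third had 730 UMIs, with 11 of Epcam, 5 of Krt18 and 1 of Csn3, and Spp1 and Mfge8 among its highest genes. All 3 lay at or below 1.23% mitochondrial UMIs. Erbb2 had 0 UMIs in the 3 cells, which allows up to 678 CPM at a floor of 3 counts.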

How the data were processed

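Cells of 4 tumours were profiled with 10x Genomics 3′ chemistry (v3.1), per the labels' protocols. The deposited files hold raw UMI counts per gene and barcode, without removal of empty droplets; the submitters' processing notes name Cell Ranger 3.1.0 and mm10, and the feature names combine a human and a mouse reference. Of 64591 features the 31053 mouse ones were used. Library totals were 6705368 to 29001333 UMIs, and kept barcodes held 84.1 to 89.7% of the mouse UMIs. The members and gene lists were chosen with earlier results of these data known.

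UMIs were summed per library and scaled to 1000000 (CPM). Depth classes were compared with edgeR 4.0.16 (TMM, filterByExpr, quasi-likelihood test, library as block, since deep and shallow sums share a tumour, Benjamini-Hochberg over all genes) and DESeq2 1.42.0, both tested on simulated data: of genes changed 4-fold, edgeR recovered 100% and DESeq2 92%, of those changed 2-fold, 68% and 24%, with 8 and 0 false calls over 9836 genes. The changed genes were drawn from those with a mean above 50 CPM, and the simulated libraries shared a common profile, unlike the WT libraries here. Recovery for genes at lower levels was not measured. A test by host genotype was planned only if each library held 20 tumour cells, which IL1α-/- replicate 2 did not. Nothing in the labels says more of what separates the replicates than the collection day. The p-values therefore measure only the spread in these libraries, which for the blocked fit is that of the deep to shallow difference. Ranges beside counts are exact at 95%. Doublets were scored with Scrublet (scanpy 1.11.5), at 0.8% per 1000 kept barcodes, and 1, 14, 0 and 0 tumour cells were marked; they were kept. Clusters used 1500 variable genes, 20 components, 15 neighbours and Leiden resolution 0.6 (leidenalg 0.10.2).

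Named genes were the 10 largest changes each way with an adjusted p under 0.05, the same direction in both libraries and at least 50 CPM in 1 class (unnamed models left out), the 15 of highest level, the 15 of highest ratio to other barcodes, the 10 largest ratios each way between WT libraries at 100 CPM or more, and list members. Single cells and clusters' genes were picked after their values were seen. Gene identifiers matched GENCODE release 21 for 31011 of 31053 mouse genes.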

Additional observations from a re-analysis of the deposited data

How the results depend on the processing

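The count of genes that differed between deep and shallow cells (27) depended on the setting. It was 0 with no replicate block and 6 with DESeq2, 142 between the deepest and shallowest tertiles, 139 with a limit of 3000 UMIs and 12 at no more than 10% mitochondrial UMIs; the limits added after seeing the data gave 155 (2000 UMIs) and 174 (at least 1% mitochondrial). It stayed within 1.5 times of 27 with library totals only (32), no low-count filter (22), doublets left out (21) and a keratin and Epcam share of 0.5% (29). Among named genes, Csn2 turned to 0.19 between those tertiles, 0.11 at 3000 UMIs and 0.40 at the 0.5% share, and Nr4a2 to -0.39 at 1% mitochondrial or more; the cause was not tested. Leaving out a WT library leaves 1 library and no test. The share of tumour cells kept its direction in each alternative: leaving out each sample in turn gave -7.59 to -5.18 points, and the replicate block (paired differences, exact sign-flip test) gave -6.38 points with p = 0.5. The ratios of WT replicate 2 to WT replicate 1, whose alternatives were chosen after seeing the data, moved to 4.64 in shallow cells and 4.79 at the 0.5% share for interferon response (3.75), and for MHC class I (4.44) to 3.71 in shallow cells, 4.77 at 10% mitochondrial, 4.54 without doublets and 6.65 at the 0.5% share; each stayed above 1. Depth limits the cells of IL1α-/- hosts, which hold 126140 and 4424 UMIs, and the shallow sums.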
